A study of Mus musculus with 10 samples.

Results

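The genes described are 5 cytokines that signal through gp130 (*Il6*, *Lif*, *Cntf*, *Osm* and *Clcf1*) and the 5 receptor subunits that bind them (*Il6st*, which encodes gp130 itself, *Lifr*, *Osmr*, *Il6ra* and *Cntfr*). They were taken by symbol, 10 genes of the 53974 in the RNA-seq table, and all 10 were found. From the ATAC-seq comparison, the regions within 1000 bp of either end of one of these genes were taken, which gave 3 regions of 16600. All mice were *Arid1a* fl/fl C57BL/6 animals of 8 to 10 weeks that received an intravitreal injection of AAV2-GFP (WT) or AAV2-Cre (cKO, genotype *Arid1a* del/del in the labels) and underwent optic nerve crush (ONC) 2 weeks later. Both viruses used the CMV promoter, which is not restricted to a cell type, and neither an uninjured group nor mice without the floxed allele were part of the comparison. Per the methods, AAV2-GFP had a higher titer than AAV2-Cre, so virus titer cannot be told apart from the label. Retinal cells were collected 3 days after ONC by sorting for Thy1.2-positive, DAPI-negative cells, to enrich retinal ganglion cells (RGCs), and gave 3 RNA-seq libraries and 2 ATAC-seq libraries per label. Per the methods, the cells of several retinas were pooled in a sample.

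The gp130 family of cytokines shares one signal-transducing receptor chain. IL-6 first binds an alpha subunit, IL6RA, and the pair brings gp130 chains together, while LIF, OSM, CNTF and CLCF1 join gp130 to a partner chain, LIFR or OSMR, and CNTF and CLCF1 also need the alpha subunit CNTFR. The assembled chains activate JAK kinases and STAT3, and SOCS3 is induced in turn and shuts the receptor off. In the injured retina LIF and CNTF are known as survival and growth factors for RGCs and photoreceptors, Müller glia are a known source of both and respond to them, and OSM and IL-6 are also made by leukocytes.

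The targeted gene and the markers of other cells bear on every RNA value below. *Arid1a*, which encodes the chromatin remodelling subunit deleted by Cre, measured 18.8, 11.7 and 14.1 TPM (transcripts per 1e6 transcripts, corrected for their length) in WT replicates 1, 2 and 3 and 18.8, 27.9 and 25.0 TPM in cKO replicates 1, 2 and 3, so it was not lower under the cKO label (log2 fold change 0.66, adjusted p = 0.274 from limma). Where the loxP sites lie is not given in the sources used here, and a gene-level value also counts any exons left in place, so each direction of an RNA difference is stated for the labels. Of the 12 RGC markers, *Pou4f2* and *Pou4f3* were at 0 in at least 3 of the 6 libraries, *Rbpms* and *Slc17a6* reached at most 6.43 and 1.57 TPM and *Nefl* 20.6 TPM. *Isl1*, which bipolar and amacrine cells also express, measured 51.9 to 98.0 TPM in WT and 55.8 to 104 TPM in cKO-labelled libraries. *Thy1*, the gene of the sorting antigen, which mouse T cells also carry, was higher in all cKO-labelled libraries (94.4 to 129 TPM) than in all WT ones (51.9 to 88.5 TPM), as was *Tubb3* (7.05 to 12.0 against 3.45 to 5.32 TPM). The T cell gene *Cd3e* was lower in all cKO-labelled libraries (9.13 to 16.5 TPM) than in all WT ones (56.7 to 83.1 TPM). Summed over the 12 RGC markers, TPM was 227 to 253 in cKO-labelled and 144 to 205 in WT libraries, without overlap. *Thy1* and *Isl1* held most of this sum in each library, so it mainly follows the sorting antigen and a gene shared with other cells. Of the 12 markers, 6 were higher and 6 lower. Summed TPM over the marker lists was lower in all cKO than in all WT libraries for T cells (151 to 372 against 623 to 1751, with 8 of 8 markers lower), B cells (8.77 to 18.0 against 29.6 to 106, 4 of 4 lower) and myeloid cells (535 to 723 against 1387 to 2042, 8 of 8 lower), and higher for rods (9815 to 17930 against 4257 to 6490 over 5 markers, 5 of 5 higher). It overlapped between the labels for Müller glia and astrocytes (10535 to 25199 against 14287 to 26726), although 9 of 10 markers were lower by mean TPM.

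Levels of these genes spanned from 0 to 88.3 TPM, except for a single library of *Cntfr*. In the WT libraries the order by median TPM, a scale that accounts for transcript length, was *Il6st* (82.2), *Osmr* (45.0), *Cntfr* (22.7), *Cntf* (21.6), *Osm* (16.7), *Lifr* (15.5), *Clcf1* (9.01), *Il6ra* (8.55), *Lif* (4.23) and *Il6* (1.02). Neighbours in this order overlapped over the 3 libraries, with the exceptions of *Cntfr* and *Cntf*, *Lifr* and *Clcf1*, and *Lif* and *Il6*. In the libraries labelled cKO the order was *Il6st* (43.6), *Cntfr* (33.4), *Lifr* (31.6), *Osmr* (22.8), *Cntf* (8.92), *Clcf1* (5.79), *Osm* (4.82), *Il6ra* (3.37), *Lif* (2.60) and *Il6* (0.15), and the 4 receptor chains *Il6st*, *Cntfr*, *Lifr* and *Osmr* stood above all 5 cytokines by their medians. There *Osmr* and *Cntf*, *Osm* and *Il6ra*, and *Lif* and *Il6* were the neighbours whose ranges did not overlap. Summed over the 5 cytokines, TPM was 41.8, 46.2 and 58.9 in WT replicates 1 to 3 and 26.1, 20.3 and 32.8 in the cKO-labelled ones. The summed cytokine level was therefore higher in each WT library than in any cKO-labelled library, although no cytokine separated the labels by itself. How often sums of other genes separate the labels was not computed. The sum over the 4 receptor genes other than *Cntfr* overlapped, at 83.8, 155 and 160 TPM against 82.3, 99.9 and 182 TPM. It consisted mostly of *Il6st* and *Osmr*, and *Il6ra*, which separated the labels by itself, added little to it.

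**Figure D1:**
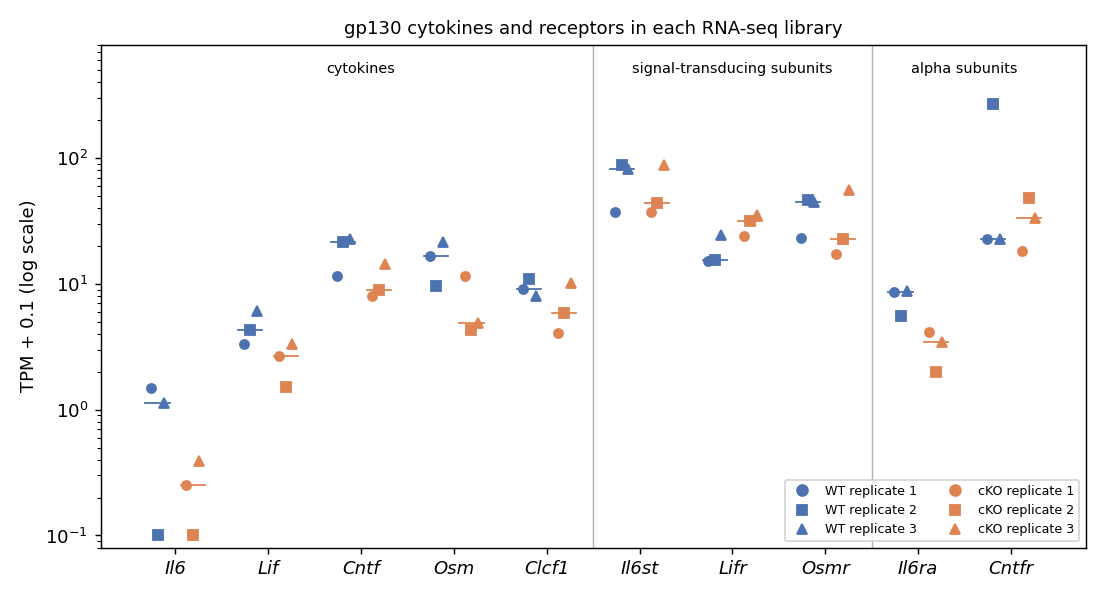
TPM (with 0.1 added so that 0 can be drawn, log scale) of each gene in the 3 WT (blue) and 3 cKO-labelled (orange) RNA-seq libraries, with the replicate number as the marker shape and the group median as a line. *Il6ra* is the one gene in which all WT points lie above all cKO-labelled points, and *Cntfr* in WT replicate 2, at 269.9 TPM, stands far above its other 5 libraries.

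Among the cytokines, *Il6*, the founding member of the family, was at 1.39, 0 and 1.02 TPM in the WT and 0.15, 0 and 0.29 TPM in the cKO-labelled libraries. It was listed at 0 in replicate 2 of each label and was too low to be tested. It overlaps the gene *A230098N10Rik*. *Lif*, the leukemia inhibitory factor gene, which retinal injury is known to induce, measured 3.23, 4.23 and 6.00 TPM in WT and 2.60, 1.41 and 3.23 TPM in cKO-labelled libraries (4.49 ± 1.40 and 2.41 ± 0.92, mean ± SD, n = 3 each). Its ranges met at the edge, with the highest cKO-labelled library level with the lowest WT one. The difference on the log2(TPM + 1) scale was -0.69 with a standard error of 0.35 (unadjusted p = 0.0851 and adjusted p = 0.331 from limma).

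*Cntf*, which encodes ciliary neurotrophic factor, measured 11.6, 21.6 and 22.6 TPM in the WT and 7.85, 8.92 and 14.3 TPM in the cKO-labelled libraries (18.6 ± 6.13 and 10.4 ± 3.47). WT replicate 1 was the one WT library below the highest cKO-labelled library. The log2 fold change was -0.77 (SE 0.36, unadjusted p = 0.0690, adjusted p = 0.305 from limma), and the unadjusted p was 0.0278 when the replicate number was kept as a block. *Cntf* overlaps the gene *Gm44505*, so some of its reads may not be its own.

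*Osm*, the oncostatin M gene, which is best known from activated leukocytes, measured 16.7, 9.55 and 21.3 TPM in WT and 11.5, 4.18 and 4.82 TPM in cKO-labelled libraries (15.8 ± 5.92 and 6.83 ± 4.05). Only WT replicate 2 and cKO replicate 1 kept the groups from separating. Of the cytokines tested, *Osm* had the largest difference, with a log2 fold change of -1.16 (SE 0.45, unadjusted p = 0.0361, adjusted p = 0.237 from limma). T cell, B cell and myeloid markers were lower in the same libraries by label, as given above, and their part in the *Osm* difference was not tested. In these sorted bulk samples fewer cells of a type cannot be told apart from less RNA per cell. *Clcf1*, a second ligand of the CNTF receptor, measured 9.01, 10.8 and 7.91 TPM in the WT and 4.01, 5.79 and 10.1 TPM in the cKO-labelled libraries (9.24 ± 1.45 and 6.63 ± 3.13), and cKO replicate 3 lay among the WT libraries. Its log2 fold change was -0.49 (SE 0.36, adjusted p = 0.499 from limma), and it overlaps 2 other genes, *LOC102631992* and *Gm45928*.

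The promoters of the cytokines are shown because the activator protein 1 (AP-1) motif is the one searched motif that all 3 of those listed in RefSeq share. On GRCm38.p6, the 250 bases before the start of *Il6* lie on the plus strand at chr5:30012864-30013113, those of *Lif* on the plus strand at chr11:4257318-4257567 and those of *Cntf* on the minus strand at chr19:12765633-12765882. They are written 5′ to 3′ in lower case with matches of TGANTCA (AP-1) in capitals.
Il6: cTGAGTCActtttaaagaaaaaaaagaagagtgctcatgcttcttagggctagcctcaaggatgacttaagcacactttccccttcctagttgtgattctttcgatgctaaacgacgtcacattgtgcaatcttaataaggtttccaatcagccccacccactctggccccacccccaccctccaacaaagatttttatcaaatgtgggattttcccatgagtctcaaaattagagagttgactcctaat
Lif: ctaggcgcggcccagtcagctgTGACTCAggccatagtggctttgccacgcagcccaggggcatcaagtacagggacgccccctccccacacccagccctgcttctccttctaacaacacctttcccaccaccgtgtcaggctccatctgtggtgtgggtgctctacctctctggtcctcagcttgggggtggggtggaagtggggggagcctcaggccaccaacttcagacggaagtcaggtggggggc
Cntf: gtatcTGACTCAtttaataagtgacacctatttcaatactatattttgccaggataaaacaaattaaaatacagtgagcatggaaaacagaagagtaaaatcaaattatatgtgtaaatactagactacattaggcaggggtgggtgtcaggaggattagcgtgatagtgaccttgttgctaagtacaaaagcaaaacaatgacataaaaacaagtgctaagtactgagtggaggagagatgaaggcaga
Promoters were searched on both strands from 250 bases before to 50 bases after the start. The AP-1 match begins 249 bases before the start in *Il6*, 228 in *Lif* and 245 in *Cntf*, and 7.81% of the 32851 RefSeq promoters hold one. None of the 3 holds TTCNNNGAA (the STAT motif, in 8.30% of promoters) or GGGCGG (the GC box bound by Sp1, in 35.7%). The GC content was 44% in *Il6*, 63.7% in *Lif* and 36.3% in *Cntf*, with a median of 52.7% over all promoters. *Osm* and *Clcf1* were not matched in the promoter table. *Osm* lies 16.5 kb from *Lif* on chromosome 11 with no gene between them.

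Of the signal-transducing subunits, *Il6st* was the most abundant, at 37.1, 88.0 and 82.2 TPM in the WT and 37.3, 43.6 and 88.3 TPM in the cKO-labelled libraries (69.1 ± 27.9 and 56.4 ± 27.8, n = 3 each). The lowest library of each label lay near 37 TPM and the highest near 88 TPM, so the spread within a label was as wide as the whole range. The log2 fold change was -0.30 (SE 0.45, adjusted p = 0.754 from limma, exact two-sided permutation p = 1). *Osmr*, the second chain of the OSM receptor, had the same shape, at 23.1, 46.2 and 45.0 TPM in WT and 17.1, 22.8 and 55.6 TPM in cKO-labelled libraries (38.1 ± 13.0 and 31.9 ± 20.8). WT replicate 1 and cKO replicates 1 and 2 were low and the other 3 libraries high, as for *Il6st*, and the log2 fold change was -0.37 (SE 0.48, adjusted p = 0.717 from limma).

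*Lifr*, which pairs with gp130 to receive LIF, CNTF and CLCF1, was the one gene tested that was higher under the cKO label. It measured 15.0, 15.5 and 24.4 TPM in WT and 23.8, 31.6 and 35.1 TPM in cKO-labelled libraries (18.3 ± 5.29 and 30.2 ± 5.77). WT replicate 3 and cKO replicate 1 overlapped. The log2 fold change was 0.71 (SE 0.29, unadjusted p = 0.0422, adjusted p = 0.254 from limma, exact permutation p = 0.2). After scaling the libraries by the median of ratios to a reference library it was 0.54 (unadjusted p = 0.0832), so the call at an unadjusted p under 0.05 depended on the scaling. Rod and bipolar or amacrine markers were also higher in all libraries labelled cKO (for the second list 1563 to 2126 against 922 to 1100 summed TPM, 6 of 6 markers higher), and their part in the *Lifr* difference was not tested. *Lifr* and *Osmr* are neighbours on chromosome 15, 215.6 kb apart with 3 genes between them, and their log2 fold changes had opposite signs, a contrast that was not tested.

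Of the alpha subunits, *Il6ra*, which gives a cell the ability to bind IL-6, measured 8.55, 5.42 and 8.67 TPM in WT and 4.02, 1.91 and 3.37 TPM in cKO-labelled libraries (7.54 ± 1.84 and 3.10 ± 1.08, n = 3 each). All WT libraries were above all cKO-labelled ones. The log2 fold change was -1.07 (SE 0.34, unadjusted p = 0.0152, adjusted p = 0.177 from limma), and the exact two-sided permutation p was 0.1, the smallest that 3 against 3 libraries can give. Leaving out any 1 library gave log2 fold changes between -1.27 and -0.84. *Il6ra* overlaps the gene *Gm46811*. *Cntfr*, the GPI-anchored alpha subunit for CNTF and CLCF1, measured 22.7, 269.9 and 22.7 TPM in WT and 18.0, 48.4 and 33.4 TPM in cKO-labelled libraries (105 ± 143 and 33.3 ± 15.2). Its WT replicate 2 was 5.57 times the next highest library, and of 10343 genes with a mean of at least 10 TPM, 46 had that library at 5 or more times the next highest one. The log2 fold change of *Cntfr* was -0.74 (SE 0.95, adjusted p = 0.709 from limma) with this library and 0.43 (adjusted p = 0.612) without it, so its direction rested on 1 library.

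Taking the 9 tested genes together, 8 were lower and 1 was higher under the cKO label. Over all 17555 genes tested, 6822 were lower and 10733 higher. The 9 genes had a median log2 fold change of -0.69, beside 0.16 over all genes. None of the 9 passed the adjusted threshold of 0.05 in limma in either direction, where 0.0% of all genes were lower and 0.0057% higher at that threshold. At an unadjusted p under 0.05, *Osm* and *Il6ra* were lower (2 of 9, where 6.45% of all genes were) and *Lifr* was higher (1 of 9, where 11.9% were). Groups did not overlap for 1 of 9 in the lower direction (*Il6ra*, with 7.18% of all genes) and for 0 in the higher direction (18.7%). Scaling by the median of ratios moved the median of all genes by -0.15 and that of the 9 genes to -0.82, and then *Lif* (unadjusted p = 0.0437), *Cntf* (0.0231), *Osm* (0.0299) and *Il6ra* (0.0127) were lower (4 of 9, 9.54% of all genes) and 0 were higher (7.57%). Leaving out WT replicate 3 or cKO replicate 2 left 0 of the genes lower at an unadjusted p under 0.05. Without WT replicate 1 the one lower gene was *Cntf*, and without WT replicate 1 or 2 or cKO replicate 2 or 3 *Lifr* no longer passed.

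**Figure D2:**
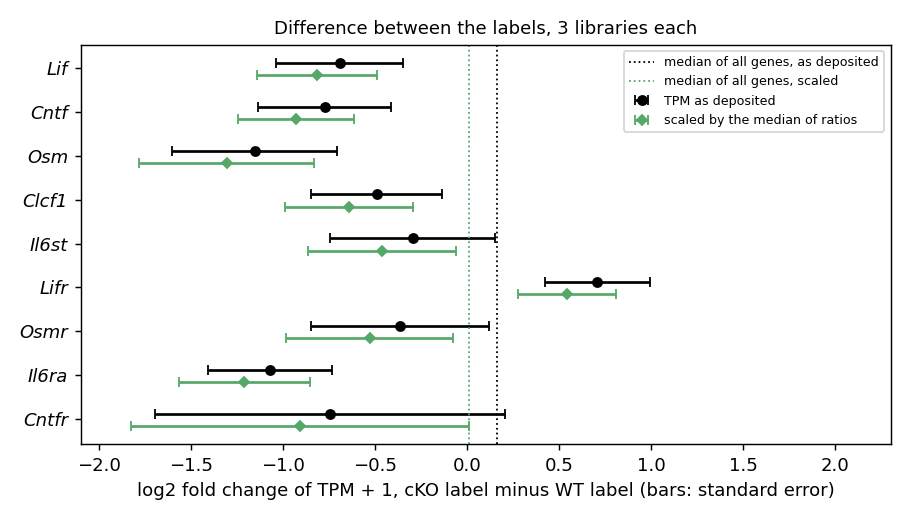
Log2 fold change of TPM + 1, cKO label minus WT label, of the 9 tested genes with its standard error (n = 3 libraries per label), from TPM as deposited (black circles) and after median of ratios scaling (green diamonds), with the median of all genes as dotted lines. *Lifr* alone lies to the right of 0, at 0.71 and 0.54, and *Osm* and *Il6ra* lie farthest to the left.

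The accessibility of chromatin at these genes was read from peaks called in each ATAC-seq library and from the authors' log2 mean of normalized reads per label, which carries no spread, so no test was made on it. A region was listed at the ends of 3 genes (*Il6st*, *Il6ra* and *Clcf1*, 3 of 10, where 37.6% of 21631 genes have one). At the start of *Il6st*, the region chr13:112463369-112464743 had 6.08 in WT and 3.63 in cKO on the log2 scale, a difference of -2.45, which corresponds to 67.6 and 12.4 normalized reads. At *Il6ra*, the region chr3:89912804-89913460 had 4.30 in WT and 2.59 in cKO, a difference of -1.71. The region at *Clcf1*, chr19:4214072-4215079, had 4.50 and 3.92, a difference of -0.58. Each of the 3 regions held a peak in both WT libraries and in no cKO library. The regions span those WT peaks, so they were listed through the WT libraries and a lower cKO value was partly built in. The share of all regions with this peak pattern was not counted. Of the 3 regions, 2 were lower by more than 1 on the log2 scale, where 92.0% of the 7170 regions at ends of protein-coding genes were. The median difference over those 7170 regions was -2.56.

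Outside that window, *Lifr* had its largest region, chr15:7129010-7130018. This region, which spans a start listed in RefSeq, lies inside the gene, 38.4 kb from the gene's upstream end. It had 5.19 in WT and 1.97 in cKO, a difference of -3.22, from 36.5 to 3.92 normalized reads, with peaks in both WT libraries and in no cKO library. Accessibility there was thus lower and *Lifr* RNA higher under the cKO label, whereas for *Il6ra* both were lower. Lower accessibility was not particular to these genes, as 97.2% of the 7170 regions at ends of protein-coding genes had a difference below 0. Further regions inside *Lifr* had a difference of 0.67 (chr15:7190928-7191370) and of 0 (chr15:7099150-7099748). In *Lif* a weak region 1163 bp past the start, chr11:4258731-4259155, had 2.98 in WT and 1.06 in cKO, a difference of -1.92. This *Lif* region and the largest *Lifr* region also span WT peaks alone, so a lower cKO value was partly built in.

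The promoters of the receptor genes whose starts lie in these regions are shown to place the accessible sequence. The 250 bases before the start lie at chr13:112463820-112464069 on the plus strand for *Il6st*, at chr15:7129322-7129571 on the plus strand for *Lifr* and at chr3:89913197-89913446 on the minus strand for *Il6ra*, all on GRCm38.p6. Matches of GGGCGG (GC box, either strand) that lie wholly before the start are in capitals.
Il6st: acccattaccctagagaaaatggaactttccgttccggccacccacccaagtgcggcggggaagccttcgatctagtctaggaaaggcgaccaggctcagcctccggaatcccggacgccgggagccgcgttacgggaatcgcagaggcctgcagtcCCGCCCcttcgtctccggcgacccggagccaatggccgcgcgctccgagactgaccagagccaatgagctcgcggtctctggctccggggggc
Lifr: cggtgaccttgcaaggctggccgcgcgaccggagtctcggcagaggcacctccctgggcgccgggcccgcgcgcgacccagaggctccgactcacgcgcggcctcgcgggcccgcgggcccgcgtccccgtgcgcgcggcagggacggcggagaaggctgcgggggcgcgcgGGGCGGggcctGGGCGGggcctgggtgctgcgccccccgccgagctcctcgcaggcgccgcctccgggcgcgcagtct
Il6ra: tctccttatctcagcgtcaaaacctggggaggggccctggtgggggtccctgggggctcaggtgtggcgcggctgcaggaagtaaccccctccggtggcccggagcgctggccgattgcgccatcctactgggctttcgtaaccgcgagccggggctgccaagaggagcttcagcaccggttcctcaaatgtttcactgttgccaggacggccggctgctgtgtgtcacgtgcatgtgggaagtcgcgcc
GC boxes begin 93 bases before the start of *Il6st*, with a second match 4 bases before it that runs past the start and another 11 bases after it, and 78 and 67 bases before the start of *Lifr*. *Il6ra* holds none, although its GC content, at 66%, was close to the 68.3% of *Il6st* and below the 81.3% of *Lifr*. *Osmr* has GC boxes 198 and 23 bases before its start and an AP-1 match 3 bases after it. *Cntfr* has GC boxes in 4 of its 6 listed promoters, but these promoters overlap and share boxes. No receptor promoter holds the STAT motif.

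Peaks called in each library were also counted at the gene ends. WT replicate 1 had a peak at the ends of 5 of the 10 genes (*Lif*, *Clcf1*, *Il6st*, *Osmr* and *Il6ra*, where 49.9% of all genes had one), and WT replicate 2 at 4 (*Osm*, *Clcf1*, *Il6st* and *Il6ra*, 43.4%). cKO replicate 1 had peaks at 2 (*Osm* and *Osmr*, 12.6%) and cKO replicate 2 at 1 (13.0%), which was *Il6st*, at the end opposite its start. Both WT libraries thus had peaks at 3 of 10 genes (37.5% of all genes) and both cKO libraries at 0 (2.12%). These shares were close to those of all genes, and the libraries did not differ in the same way in their total number of peaks, at 76522 and 42265 in WT and 55902 and 68317 in cKO. *Il6* and *Cntf* had no peak in any library, at their ends or within the gene, although *Cntf* RNA was present in all 6 RNA-seq libraries.

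**Figure D3:**
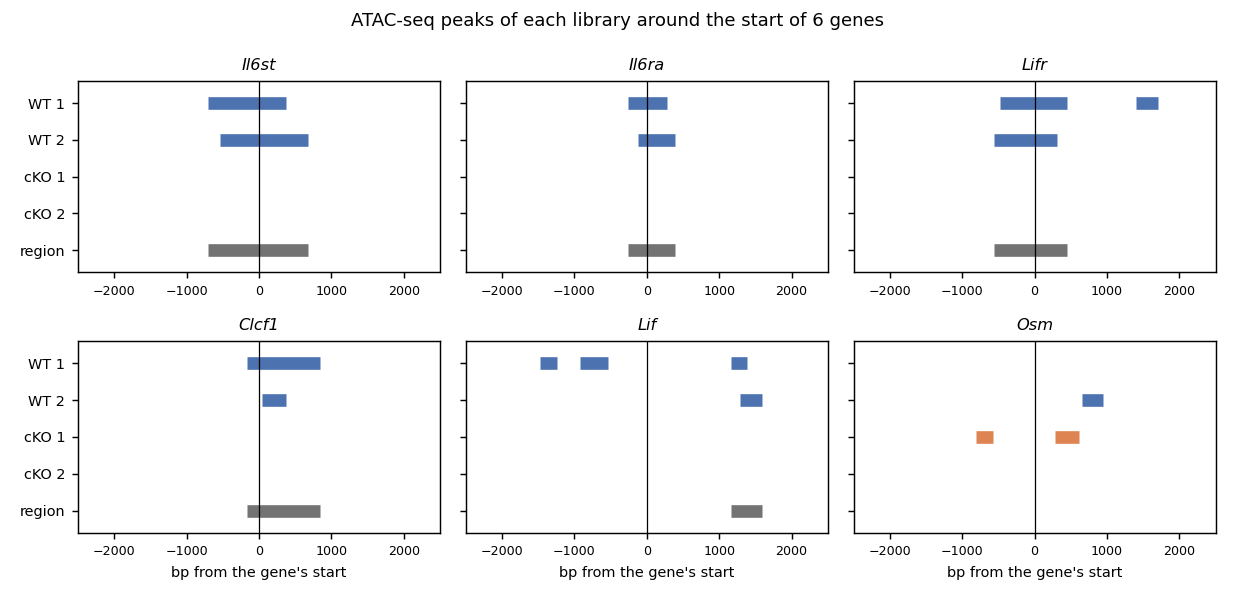
Peaks of the 2 WT (blue) and 2 cKO (orange) ATAC-seq libraries and the region of the authors' comparison (grey) around 6 genes, as bp from the gene's start (for *Clcf1* and *Osm*, whose strand was not matched, from the lower end of the gene). Both WT libraries have a peak over the start of *Il6st*, *Il6ra* and *Lifr* where neither cKO library has one, and *Osm* has peaks in WT replicate 2 and cKO replicate 1.

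The pattern of *Il6st* over the 6 libraries was compared with those of 10342 other genes with a mean of at least 10 TPM, by the root mean square difference of log2(TPM + 1) centred on each gene's mean. The 5 nearest were *Megf10* (0.057), *Trp53bp2* (0.064), *Il11ra1* (0.064), *Aldh6a1* (0.064) and *Adamts1* (0.065). *Il11ra1* is itself the alpha subunit through which IL-11 reaches gp130, and it measured 32.8, 81.3 and 70.3 TPM in WT and 31.2, 39.2 and 71.4 TPM in cKO-labelled libraries. *Glul*, the glutamine synthetase gene that marks Müller glia, ranked 17 (676, 1598 and 1480 TPM in WT, 607, 667 and 1569 TPM in cKO-labelled libraries). The glial markers *Slc1a3*, *Rlbp1* and *Aqp4* ranked 63, 252 and 278. *Osmr* ranked 98 (0.149), whereas *Lifr* ranked 5517. The summed glial markers were 14287, 23133 and 26726 TPM in WT and 10535, 11141 and 25199 TPM in cKO-labelled libraries, low in the same 3 libraries in which *Il6st* and *Osmr* were low. Single glial markers could differ from the sum, as *Gfap* and *Vim* were lower in all cKO-labelled than in all WT libraries. The part of glial cells in the spread of *Il6st* and *Osmr* was not tested.

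For *Il6ra*, the gene with the lowest unadjusted p, the 5 nearest were *Arhgap4* (0.092), *Igsf6* (0.114), *Id2* (0.129), *Gmip* (0.143) and *Il10ra* (0.144). *Il10ra*, the IL-10 receptor gene of leukocytes, measured 18.8, 13.4 and 22.8 TPM in WT and 10.5, 5.91 and 6.95 TPM in cKO-labelled libraries. *Osm* ranked 139 (0.30) by likeness to *Il6ra* and *Il6st* ranked 4444. Summed T cell markers were 1751, 623 and 1399 TPM in WT and 372, 151 and 353 TPM in cKO-labelled libraries, and *Ptprc*, the pan-leukocyte gene CD45, was at 286, 76.6 and 240 TPM against 81.1, 48.1 and 67.6 TPM. WT replicate 2 was the lowest WT library for *Il6ra*, *Osm*, *Ptprc* and the T cell and myeloid sums. *Ptprc* is itself one of the 8 myeloid markers, of which all but *Csf1r* and *Cx3cr1* were lowest in that WT library. The part of these cells in the *Il6ra* difference was not tested.

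**Figure D4:**
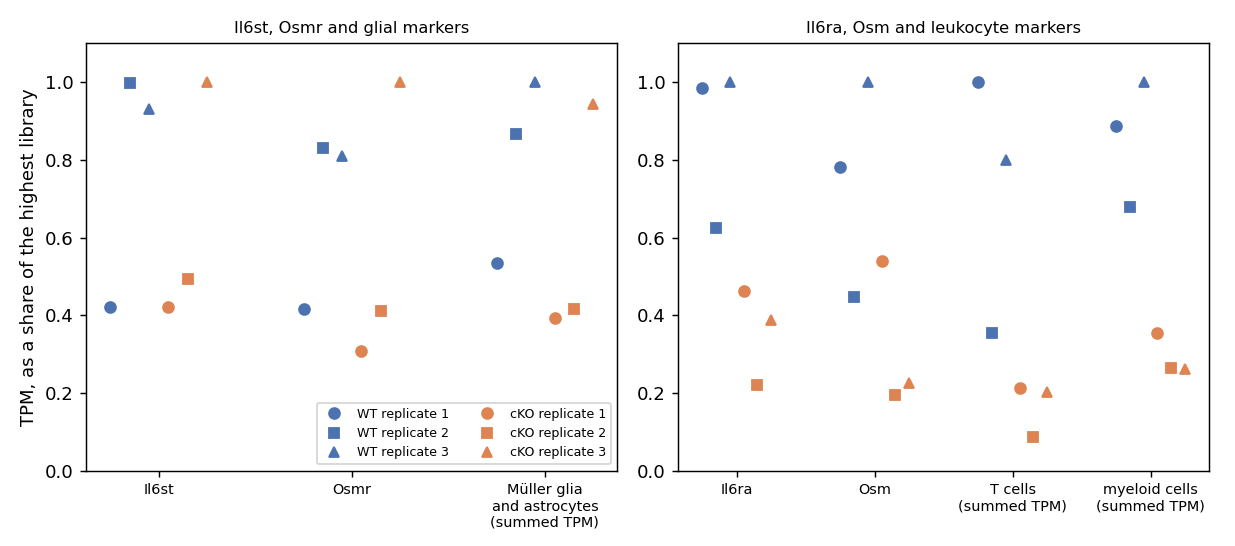
TPM of each gene or summed TPM of each marker list in the 3 WT (blue) and 3 cKO-labelled (orange) libraries, as a share of its own highest library. On the left, *Il6st*, *Osmr* and the glial markers are low in WT replicate 1 and cKO replicates 1 and 2, and on the right *Il6ra*, *Osm*, T cell and myeloid markers are lower under the cKO label, with 1 overlap for *Osm*.

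The genes around the receptors were taken from lists of other gp130 family genes, JAK, STAT and adaptor genes, inhibitors and STAT3 targets, 53 genes of which 44 could be tested. None passed the adjusted threshold in limma, and at an unadjusted p under 0.05, 13 of 44 were lower (6.45% of all genes) and 1 was higher (11.9%). Their median log2 fold change was -0.40, beside 0.16 over all genes.

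Of the other ligands and receptors of the family, 5 of 10 were expressed highly enough for the test. At an unadjusted p under 0.05, 2 were lower (6.45% of all genes) and 0 were higher (11.9%). Both belong to the IL-27 system, which signals through gp130 in lymphocytes. *Il27* measured 3.06, 4.27 and 3.30 TPM in WT and 1.44, 0.38 and 0.57 TPM in cKO-labelled libraries (log2 fold change -1.38, unadjusted p = 0.00361, limma). *Il27ra*, the partner chain of gp130 for IL-27, measured 28.1, 9.32 and 23.9 TPM in WT and 7.80, 2.31 and 7.05 TPM in cKO-labelled libraries (-1.66, unadjusted p = 0.0173, limma). *Il31* was at 0 in all 6 libraries and was named after its values were seen.

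Of the JAK, STAT and adaptor genes, the main effectors of gp130 did not pass the test at an unadjusted p under 0.05. *Stat3*, the transcription factor that gp130 chiefly activates, measured 109, 153 and 174 TPM in WT and 83.0, 90.9 and 154 TPM in cKO-labelled libraries (log2 fold change -0.44, SE 0.31, adjusted p = 0.488 from limma). *Jak1*, the kinase bound to gp130, measured 208, 171 and 293 TPM in WT and 176, 151 and 250 TPM in cKO-labelled libraries (-0.21, SE 0.29, adjusted p = 0.726 from limma). In both, the labels overlapped. These 2 were named after their values were seen.

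Of 8 inhibitors, 3 were lower at an unadjusted p under 0.05 (6.45% of all genes) and 0 were higher (11.9%). In all 3 the groups did not overlap, where 7.18% of all genes had no overlap in the lower direction. *Socs3*, the feedback inhibitor that binds gp130, measured 144, 154 and 258 TPM in WT and 87.4, 63.9 and 130 TPM in cKO-labelled libraries (log2 fold change -0.98, SE 0.34, unadjusted p = 0.0242, limma). *Socs1*, which blocks JAKs downstream of interferons, measured 11.3, 12.7 and 11.7 TPM in WT and 3.49, 1.61 and 3.39 TPM in cKO-labelled libraries (-1.79, unadjusted p = 0.000668, limma). *Ptpn6*, the phosphatase SHP-1 of blood cells, was at 90.1, 59.7 and 133 TPM against 38.9, 18.5 and 48.8 TPM (-1.42, unadjusted p = 0.0136, limma). The other 5 inhibitors did not pass.

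STAT3 target genes gave 7 lower (6.45% of all genes) and 1 higher (11.9%) of 19 tested at an unadjusted p under 0.05. The 7 were *Myc* (log2 fold change -1.74), *Gfap* (-1.64), *Icam1* (-1.58), *Junb* (-1.17), *Pim1* (-1.10), *Fos* (-0.99) and *Il4ra* (-0.76). *Gfap*, the intermediate filament gene that reactive Müller glia and astrocytes induce, measured 63.0, 75.7 and 116 TPM in WT and 17.3, 25.7 and 37.5 TPM in cKO-labelled libraries, and *Pim1*, a survival kinase gene, 150, 190 and 169 TPM against 88.3, 69.5 and 77.8 TPM. In both, the labels separated completely. *Edn2*, an endothelin that injured photoreceptors release, was the one higher, at 1.65, 0.60 and 4.40 TPM in WT and 3.66, 13.6 and 5.85 TPM in cKO-labelled libraries (1.45, unadjusted p = 0.0416, limma), but with the replicate number as a block its unadjusted p was 0.0533. Leukocytes and glia also express several of these targets. The leukocyte sums given above were lower in all cKO-labelled libraries. The glial sum overlapped between the labels, although 9 of 10 glial markers were lower by mean TPM. The part of these cells in the differences was not tested.

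**Figure D5:**
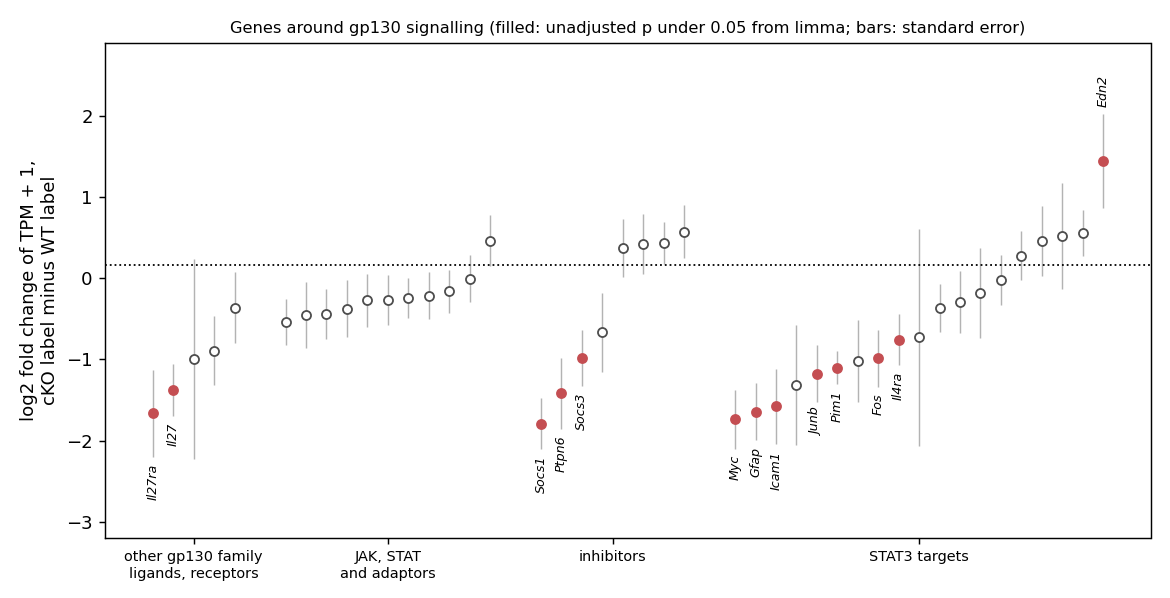
Log2 fold change of TPM + 1, cKO label minus WT label, with its standard error (n = 3 libraries per label), for the tested genes of 4 lists, 1 of them not drawn, with genes at an unadjusted p under 0.05 filled and named and the median of all genes, 0.16, as a dotted line. *Edn2* is the one filled point above 0, and the other filled points lie below it.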

How the data were processed

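RNA-seq and ATAC-seq libraries of Thy1.2-sorted retinal cells were grouped by their labels. The authors made the deposited TPM values with Trimmomatic, Salmon and tximport on GRCm38 with a GENCODE annotation, without scaling between libraries. The deposited ATAC-seq values are the authors' log2 means of normalized reads per label, made with Bowtie 2 and DiffBind, and the peak lists give positions alone. The submitters' processing notes name Bowtie2 2.3.5.1, MACS2 2.2.5, Salmon 1.0.0 and DESeq2 1.26.0. The fold changes, p-values and false discovery rates of the authors' own comparisons, among them those from DESeq2, were not used. The sequencing depth of the libraries is unknown, and no counting error can be given.

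Genes with at least 1 TPM in at least 3 of 6 libraries were compared as log2(TPM + 1) with limma 3.58.1 in R 4.3.3 (a linear fit with trended empirical Bayes), and p-values were adjusted by Benjamini-Hochberg over all 17555 genes, with 0.05 as the threshold. The fold changes therefore understate those of low genes. The fit was checked on simulated data with known changes and independent noise, without the pairing between libraries described below. Single genes were also compared with exact two-sided permutation tests. Median of ratios scaling, another pseudocount, no filter, a replicate block and leaving out each library were the alternatives. Deviations from the label means correlated between same-numbered libraries over the tested genes (0.334, 0.101 and 0.425 for numbers 1 to 3, each over 0.1), so the numbers, which come from the sample titles, were taken to pair the libraries. Differently numbered pairs lay between -0.386 and 0.193, the highest of them, WT 1 with cKO 2, above the same-numbered pair 2. The methods call the ATAC-seq libraries biological replicates and give several retinas per sample, but the labels do not tie libraries to animals, so p-values measure the spread between these libraries.

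Gene positions, promoters and overlapping genes are those of RefSeq on GRCm38.p6, in which 8 of 10 genes had a promoter. ATAC-seq regions were counted where they overlapped 1000 bp around either gene end. Their starts are counted from 1 here, whereas the deposited tables count from 0.

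The genes, the lists and the tests were chosen with earlier results of these data known. Named genes are the 10 members, the 8 largest per list at an unadjusted p under 0.05 or without overlap, the 5 nearest to *Il6st* and to the member of lowest p, and single markers. Other genes were named after their values were seen. Some genes of the lists are not reported here, and 1 rod marker was left out of the summed markers.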

Additional observations from a re-analysis of the deposited data

How the results depend on the processing

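The settings tried moved some of the small counts. Of the recomputed values, 193 were classed as the same, 26 as moved and 1 as changing sign. A count was the same if it stayed within 1.5 times, and the counts at the adjusted threshold were 0 in every setting. A log2 fold change was the same if it kept its sign and its side of the adjusted threshold, which no gene here passed. Values classed as the same could therefore move widely. Leaving out 1 library gave -0.69 to -0.06 for *Il6st* and -0.85 to -0.03 for *Osmr*. Under median of ratios scaling, 4 genes were lower at an unadjusted p under 0.05 and 0 were higher, groups did not overlap for 3 in the lower direction, and 0 pathway genes were higher, as also without the filter on low values (0). Leaving out 1 library gave 0 to 3 lower and 0 to 1 higher genes, 10 to 15 lower and 0 to 2 higher pathway genes, 1 to 5 genes without overlap in the lower and 0 to 1 in the higher direction. The 5 were reached without cKO replicate 3, and the 2 higher pathway genes without WT replicate 3 were *Edn2* and *A2m*. Groups separate more easily when a library is left out. The share of all genes without overlap was not computed with a library left out or under scaling, so these counts of non-overlap have no background. The log2 fold change of *Cntfr* ranged from -1.33 to 0.43 when 1 library was left out, and was positive without WT replicate 2. With a single ATAC-seq library per label, peaks were at 4 to 5 genes in WT and 1 to 2 in cKO, the 5 in WT replicate 1 and the 2 in cKO replicate 1. Counting from any start listed in RefSeq, a choice made after seeing the data, exchanged *Clcf1* for *Lifr* and kept the number of genes with a region at 3.

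With the replicate block, 3 genes were lower (*Cntf*, *Osm* and *Il6ra*) and 1 was higher (*Lifr*) at an unadjusted p under 0.05. Among the pathway genes, 15 were lower, with *Bcl3* (unadjusted p = 0.0161) and *Atf3* (0.0386) added, and 1 was higher, where *Socs2* (0.0490) took the place of *Edn2* (0.0533). Among these genes no other call at that level changed in limma, and 0 of them passed the adjusted threshold in either fit. No paired analysis was possible because, in the chromatin data, the signal is deposited as 1 value per label and the peaks gave no test.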
